A study of Mus musculus castaneus and Mus musculus domesticus with 13 samples.

Results

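The genes of the Polycomb repressive complexes were followed through 13 RNA-seq libraries of mouse pluripotent lines and fibroblasts. The aim was to show which subunit gene of each family held most of the RNA in each cell type and strain. Protein levels and the make-up of the complexes were not measured, and RNA shares need not match them. The genes were chosen by symbol from a list of known subunits, and 33 of 33 were found, each with 1 row among the 21706 genes of the count table. They were 6 genes of the PRC2 core, 6 PRC2 accessory genes, 8 genes of the PRC1 core, 8 genes of canonical PRC1 and 5 genes of variant PRC1. The libraries came from 4 CASP ntESC lines (#M3, #M5, #F4 and #F6), 4 CAST ntESC lines (#M2, #M8, #F1 and #F2), 2 B6D2F1 ntESC lines (#M3 and #F2), 1 B6D2F1 ESC line, 1 CAST fibroblast culture and 1 B6D2F1 MEF culture, where M and F in a line's name give its labelled sex. NtESC lines are embryonic stem cells from cloned blastocysts, for which the nucleus of a blood leukocyte was injected into an enucleated oocyte of a laboratory mouse. They carry the genotype label SCNT (somatic cell nuclear transfer), and the ESC line and both fibroblast cultures carry the label WT. CASP and CAST are inbred strains derived from wild Mus musculus castaneus, and B6D2F1 is a hybrid of laboratory strains. The CAST fibroblasts, labelled Fibro, were tail-tip fibroblasts (TTF) and the MEF were embryonic fibroblasts, so the fibroblast group differed within itself in strain, tissue and age. No sex was labelled for the ESC line and the fibroblasts, and no age and no batch for any library. Each library was 1 culture, and the error within a strain therefore comes from lines derived separately. The ntESC lines were kept with an inhibitor pair and LIF (2i/LIF) on feeder cells, which are themselves embryonic fibroblasts. Before RNA extraction the authors held the collected cells in gelatin-coated dishes to remove feeder cells. RNA of feeder cells that remained may be part of the ntESC libraries.

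Polycomb proteins keep developmental genes silent through marks on histones. PRC2 places methyl groups on histone H3 through the paralogous enzymes Ezh1 and Ezh2, which need the partners Eed and Suz12. PRC1 places ubiquitin on histone H2A through Ring1 or Rnf2 (RING1B), each bound to 1 of 6 PCGF proteins, which decide what else can join. Canonical PRC1 carries a CBX protein that binds the PRC2 mark and a PHC protein that can polymerize, whereas variant PRC1 carries Rybp or Yaf2 in their place. In mouse ESCs, Cbx7, Mtf2, Jarid2 and Pcgf6 are known as members of the forms that act in pluripotent cells.

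Depth was 33395162 to 49968894 counts per library. Levels are given as CPM, counts scaled to one common library size after TMM scaling of all 13 libraries. The summed level of 6 pluripotency markers was 2898 to 3933 CPM across the ntESC lines, 3290.3 CPM in the ESC line, and 0.342 and 1.60 CPM in the TTF and MEF libraries. For 9 fibroblast markers the sums were 66.1 to 382 CPM across the ntESC lines and 171 CPM in the ESC line, against 6017 and 9700.4 CPM in the TTF and MEF libraries, with no marker at 0 in any library. The labels of the lines and of the fibroblasts were thus met by the sums of their defining markers. Among the single fibroblast markers, Thy1 went the other way in TTF. Its level there, 2.50 CPM, was below that of every ntESC line, the lowest being B6D2F1 #M3 with 2.69 CPM. The ESC line had 4.80 CPM of Thy1 and MEF 25.1 CPM. Each of the other fibroblast markers was higher in both fibroblast libraries than in any ntESC line. The part of feeder cells in the levels of the ntESC lines was not tested. Of 6 leukocyte markers, the donor cell type, 2 or 3 had no count in each ntESC line and the sum was 4.29 to 7.94 CPM, against 338 CPM in the TTF library, most of it Lyz2 (325 CPM), and 29.2 CPM in the MEF library. In CASP #F6 the median gene of chromosome 2 stood 0.49 higher on the log2 scale than in the other lines of its strain, and in CASP #F4 that of chromosome 8 stood 0.48 higher. Of the 33 genes, Phf19 and Bmi1 lie on chromosome 2 and none on chromosome 8. Reads of the castaneus lines were aligned to the laboratory mouse genome GRCm38, and any loss of reads at variant sites was not tested.

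**Figure D1:**
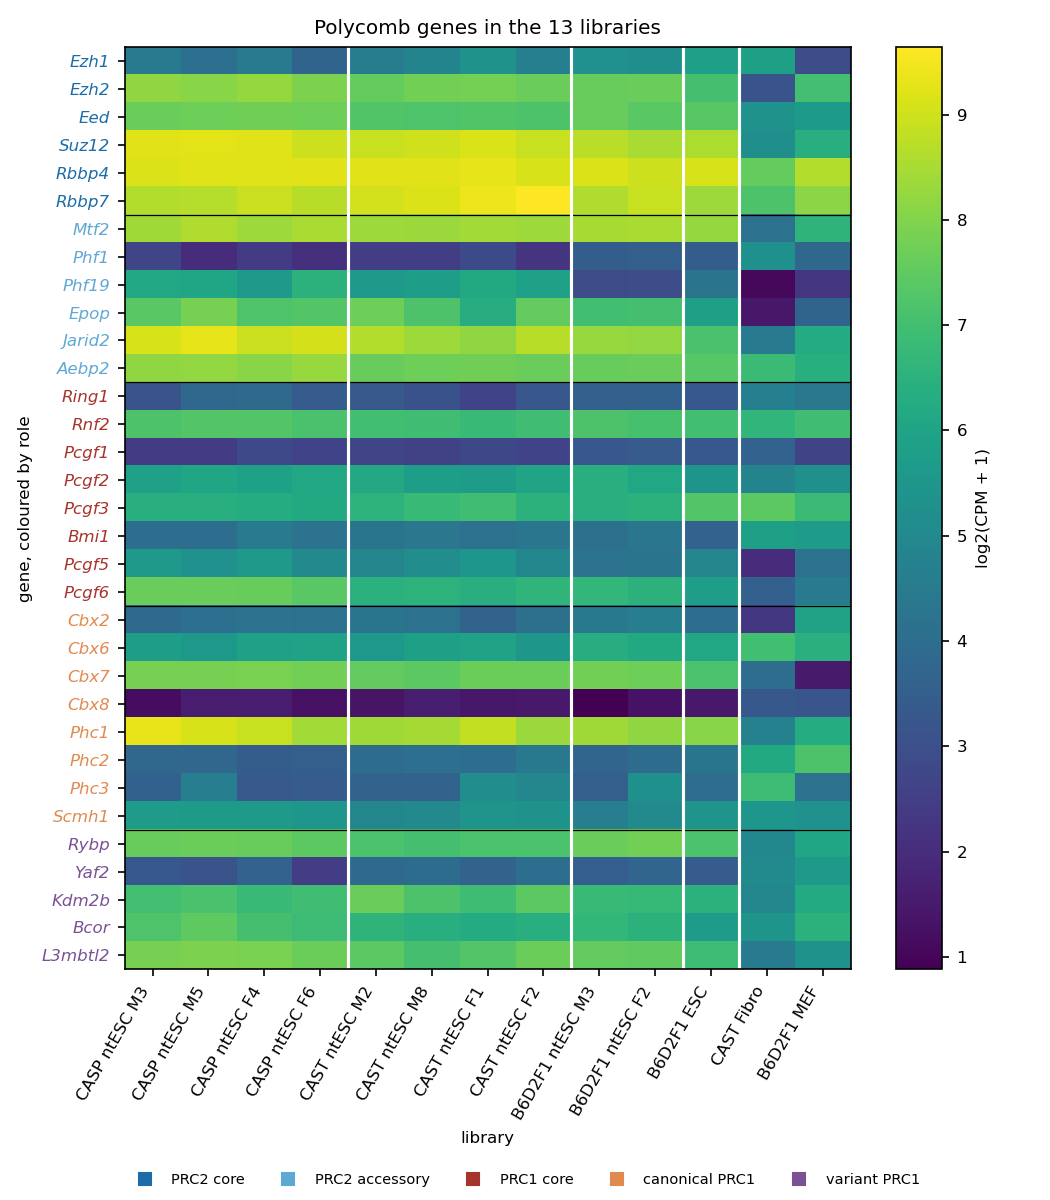
Level of each of the 33 genes (rows, coloured by role) in each of the 13 libraries (columns, ntESC lines by strain, then the ESC line, TTF and MEF), as log2(CPM + 1) on a colour scale. Suz12, Rbbp4 and Rbbp7 are bright in every pluripotent library, Cbx7 is bright there and dark in both fibroblast libraries, and Phf19 is dark in the 2 B6D2F1 ntESC lines and bright in the 8 CASP and CAST lines.

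Several of these genes are close paralogs, and the comparison of subunits rests on reads being assigned to the right copy. The CBX family shows how far the copies have diverged. The start of the coding sequence, which encodes the chromodomain that reads the PRC2 mark, is given for Cbx7, Cbx6 and Cbx8 from GENCODE M21 transcripts (GRCm38), 5′ to 3′ on the coding strand, with the 114 of 186 bases shared by all 3 genes in capitals. Each begins at coding base 1.
Cbx7 (chr15:79915807-79971119, minus strand): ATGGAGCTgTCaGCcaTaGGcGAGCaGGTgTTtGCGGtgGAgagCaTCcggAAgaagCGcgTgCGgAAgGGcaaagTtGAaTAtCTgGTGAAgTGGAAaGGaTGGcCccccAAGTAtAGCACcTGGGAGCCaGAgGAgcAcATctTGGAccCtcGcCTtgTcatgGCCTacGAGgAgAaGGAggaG
Cbx6 (chr15:79823896-79834688, minus strand): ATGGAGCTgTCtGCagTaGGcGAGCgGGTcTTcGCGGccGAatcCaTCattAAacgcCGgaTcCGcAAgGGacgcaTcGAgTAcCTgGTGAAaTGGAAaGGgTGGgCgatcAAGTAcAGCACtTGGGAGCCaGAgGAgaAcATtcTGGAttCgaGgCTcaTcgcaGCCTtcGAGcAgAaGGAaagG
Cbx8 (chr11:119036305-119040969, minus strand): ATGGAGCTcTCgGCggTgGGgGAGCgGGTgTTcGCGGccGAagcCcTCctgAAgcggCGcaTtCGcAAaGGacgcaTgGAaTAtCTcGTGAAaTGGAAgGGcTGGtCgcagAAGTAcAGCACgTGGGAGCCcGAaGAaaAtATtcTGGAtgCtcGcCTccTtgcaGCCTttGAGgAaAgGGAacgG
Over these bases Cbx7 was 69.9% identical to Cbx6 and 68.3% to Cbx8, and the longest unbroken match of Cbx7 to either copy was 15 bases, to Cbx6. Over the longest complete coding transcript of each of the 33 genes, 27 had no stretch of 100 bases, the length of 1 read, in a transcript of any other gene. No member shared such a stretch with another member. The exceptions were Pcgf1 (11.8% of its stretches, in Gm8930), Kdm2b (10.7%, mainly in Gm12397), Cbx6 (8.13%, in the overlapping gene Npcd), Bmi1 (7.21%, in Gm5946), Rybp (5.18%, in Rybp-ps) and Rbbp7 (1.86%, in Gm6382), and their counts are uncertain by the reads that such stretches could draw. Exons of 12 members also overlap those of a gene on the opposite strand, by 60 to 1578 bases. The overlap was 1526 of 3486 exon bases for Phf1 (mostly with Cuta), 1578 of 8744 for Rbbp4, 1023 of 5945 for L3mbtl2 and 826 of 10869 for Kdm2b. The library kit keeps strand, but whether the counting used it is not given in the sources used here. Without it reads of both strands cannot be told apart.

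Within the ntESC lines the subunits covered a wide range of abundance. To set different genes side by side, levels were taken per kilobase of exon, with the union of all annotated exons as the length. This union can be far longer than 1 transcript, as for Pcgf5 (12629 bases, against 1626 in the coding transcript used above). The order of genes therefore depends on the length chosen. On this scale Rbbp7, a histone-binding subunit of PRC2, had the highest mean level of the 33 genes at 177 CPM per kb (range 134 to 274 over 10 lines). Suz12, the scaffold of PRC2, followed at 104 CPM per kb (75.4 to 125), and the ranges of these 2 genes did not overlap. Phc1 (77.5 CPM per kb, 54.3 to 124), Epop (68.1, 34.6 to 98.8), Rbbp4 (66.9, 57.2 to 73.1) and Mtf2 (60.8, 56.4 to 67.7) came next, with ranges that overlapped from each gene to its neighbour. At the other end stood Phf1 (1.60 CPM per kb), Phc3 (1.09) and Cbx8 (0.436), each a paralog of a gene with a far higher level. Rbbp7 was also the highest of the 33 in the fibroblasts, at 72.2 CPM per kb (mean of 2), whereas Epop was 4th in the ntESC lines and 29th in the fibroblasts and Cbx7 13th and 31st.

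Polycomb genes differed widely between the ntESC lines and the fibroblasts, with most PRC2 genes higher in the ntESC lines and the PRC1 genes divided by paralog. Of the 33 genes, 18 rose and 9 fell in the 10 ntESC lines relative to the 2 fibroblast libraries, and 6 did not pass (edgeR quasi-likelihood test, Benjamini-Hochberg adjustment over all genes, adjusted p under 0.05). This is 81.8% of the genes, against a background of 51.9% of the 20888 genes tested, with 24.7% called higher and 27.3% called lower. Their median log2 fold change was 1.01, against 0.12 over all genes tested. In bulk RNA a lower level can mean fewer cells of a type or less RNA per cell, which cannot be told apart. The fibroblast libraries were far from alike: 4 of the 33 genes were over 2-fold higher and 13 over 2-fold lower in TTF than in MEF, taking CPM with a pseudocount of 0.5, against backgrounds of 19.1% and 20.2% of all genes. Without the TTF library the calls fell to 22, and without the MEF library they numbered 29.

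**Figure D2:**
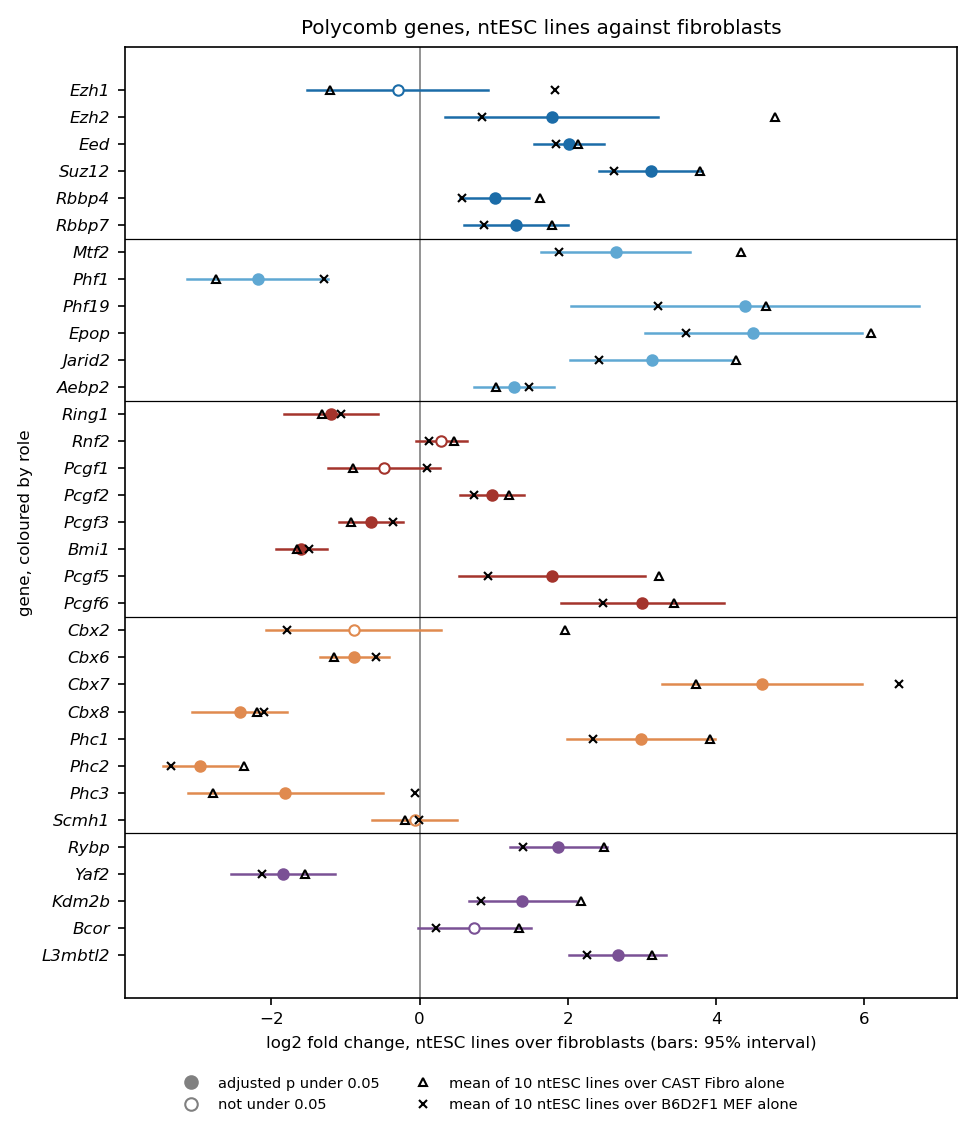
Log2 fold change of the 33 genes, ntESC lines over fibroblasts, with 95% intervals (circles and bars, filled where the adjusted p was under 0.05), and the same ratio formed with the TTF library (triangles) or the MEF library (crosses) alone, from mean log2(CPM + 0.5). For Ezh1, Cbx2 and Phc3 the triangle and the cross lie far apart, and Cbx7, Epop and Phf19 lie farthest to the right.

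In the PRC2 core, 5 of 6 genes were higher in the ntESC lines. The catalytic subunit gene Ezh2 stood at 188, 219 and 306 CPM in the ntESC lines (lowest, median and highest of 10), against 7.82 CPM in TTF and 128 CPM in MEF. Every line was above both fibroblast libraries, but the MEF level lay nearer to the lines than to TTF. This passed (log2 ratio 1.78 with SE 0.66, adjusted p = 0.0385 by edgeR), a call that ended with library size as the only scaling (adjusted p = 0.0535) and without any 1 of the 4 CASP lines. Its paralog Ezh1, which is known for PRC2 of resting cells, stood at 12.2, 23.7 and 39.5 CPM in the lines, against 57.6 CPM in TTF and 6.59 CPM in MEF. The fibroblast libraries lay on either side of all 10 lines, and Ezh1 did not pass (log2 ratio -0.29 with SE 0.56, adjusted p = 0.682 by edgeR). Without TTF it was higher in the lines by 1.99 on the log2 scale. Per kb of exon, Ezh2 made up 84.9 to 95.6% of the summed Ezh1 and Ezh2 level in the ntESC lines, 13.1% in TTF and 95.6% in MEF. Most of the EZH level was thus Ezh2 in the lines and in MEF, and Ezh1 in TTF.

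The partners that Ezh1 and Ezh2 share moved more evenly. Suz12 stood at 373, 510.1 and 616 CPM in the lines, against 36.6 CPM in TTF and 82.1 CPM in MEF (log2 ratio 3.12 with SE 0.32, adjusted p = 6.27e-06 by edgeR). Eed, which binds the methyl mark and stimulates the enzyme, stood at 146, 181 and 215 CPM, against 40.0 CPM in TTF and 48.9 CPM in MEF (log2 ratio 2.01 with SE 0.22, adjusted p = 1.01e-05 by edgeR). No ntESC line overlapped a fibroblast library for either gene. The histone-binding subunits Rbbp4 and Rbbp7, which also serve other chromatin complexes, were higher by 1.01 and 1.30 on the log2 scale (edgeR adjusted p = 0.00177 and 0.00486), the smallest changes among the called genes of the PRC2 core, and the Rbbp7 call was lost without TTF (adjusted p = 0.0728).

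All 6 PRC2 accessory genes passed, 5 higher and Phf1 lower. Mtf2, Phf1 and Phf19 are the Polycomb-like proteins, which anchor PRC2 at CpG-rich DNA. Mtf2 stood at 321, 338 and 386 CPM in the ntESC lines, against 16.7 CPM in TTF and 93.8 CPM in MEF (log2 ratio 2.65 with SE 0.46, adjusted p = 0.000445 by edgeR). It was the steadiest of the 33 genes over the lines, with a coefficient of variation of 6.19%. Phf1 stood at 3.02, 4.62 and 10.5 CPM in the lines, against 37.5 CPM in TTF and 13.3 CPM in MEF (log2 ratio -2.18 with SE 0.44, adjusted p = 0.00122 by edgeR), and its call was lost without TTF (adjusted p = 0.0934). Per kb of exon, Mtf2 made up 77.6 to 93.8% of the Polycomb-like level in the lines and 78.2% in MEF, whereas Phf1 made up 77.4% in TTF.

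Jarid2 and Aebp2 define one form of PRC2 and Epop another. Jarid2 stood at 292, 406 and 637 CPM in the lines, against 20.7 CPM in TTF and 76.2 CPM in MEF (log2 ratio 3.13 with SE 0.51, adjusted p = 0.000248 by edgeR). For Aebp2 the difference was smaller, 194, 210.3 and 313 CPM in the lines against 113 CPM in TTF and 83.6 CPM in MEF (log2 ratio 1.27 with SE 0.25, adjusted p = 0.00102 by edgeR). Neither gene overlapped between the groups. Epop, which links PRC2 to elongin, showed the second largest increase of the 33, with 80.1, 153 and 229 CPM in the lines against 1.74 CPM in TTF and 12.1 CPM in MEF (log2 ratio 4.50 with SE 0.68, adjusted p = 0.000137 by edgeR). Phf19 was higher by 4.39 on the log2 scale (edgeR adjusted p = 0.00459), a value that pools strains with very different levels of this gene and that missed the threshold without TTF (adjusted p = 0.051).

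In the PRC1 core the change went by paralog. Rnf2, the main E3 ubiquitin ligase of PRC1 in ESCs, stood at 113, 137 and 157 CPM in the lines, against 98.4 CPM in TTF and 124 CPM in MEF, and did not pass (log2 ratio 0.29 with SE 0.16, adjusted p = 0.138 by edgeR). Its paralog Ring1 was lower, with 5.30, 9.36 and 14.0 CPM in the lines against 24.1 CPM in TTF and 20.2 CPM in MEF (log2 ratio -1.19 with SE 0.29, adjusted p = 0.00443 by edgeR), and no line reached a fibroblast library. Rnf2 made up 89.8 to 94.4% of the RING level per kb in the lines, 76.2% in TTF and 82.8% in MEF.

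Of the 6 PCGF genes, 3 were higher, 2 lower and Pcgf1 did not pass. Pcgf6, the PCGF protein of the variant complex that silences germ cell genes in ESCs, stood at 82.3, 98.8 and 197 CPM in the lines, against 10.9 CPM in TTF and 21.6 CPM in MEF (log2 ratio 3.01 with SE 0.51, adjusted p = 0.000339 by edgeR). Bmi1 (Pcgf4), a canonical PCGF protein best known from stem cells of adult tissues, was lower, with 15.5, 18.1 and 22.2 CPM in the lines against 57.6 CPM in TTF and 51.6 CPM in MEF (log2 ratio -1.59 with SE 0.16, adjusted p = 5.21e-06 by edgeR). The other canonical PCGF gene, Pcgf2 (Mel18), was higher by 0.98 on the log2 scale (edgeR adjusted p = 0.00142). The canonical PCGF level per kb was thus shared differently: Pcgf2 took 21.7 to 36.7% and Bmi1 5.15 to 8.79% of the level of all 6 genes in the ntESC lines, whereas Pcgf2 took 15.6% and Bmi1 29.4% in TTF, and Pcgf2 24.1% and Bmi1 29.1% in MEF. Pcgf3 and Pcgf5 belong to related variant complexes, and they moved apart: Pcgf5 was higher by 1.79 (edgeR adjusted p = 0.0206) and Pcgf3 fell by 0.66 on the log2 scale (edgeR adjusted p = 0.0148), although Pcgf3 overlapped between the groups. Both calls were lost without TTF (adjusted p = 0.144 for Pcgf5 and 0.276 for Pcgf3). That of Pcgf5 was also lost with strain as a covariate (0.0752) and that of Pcgf3 with the ESC line counted among the ntESC lines (0.0745).

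The CBX and PHC genes of canonical PRC1 held the clearest contrast of subunits. Cbx7, the CBX protein of PRC1 in undifferentiated ESCs, stood at 172, 213 and 234 CPM across the ntESC lines and 141 CPM in the ESC line, against 15.2 CPM in TTF and 1.87 CPM in MEF. Every ntESC line was more than 10-fold above both fibroblast libraries, and the log2 fold change was the largest of the 33 genes (log2 ratio 4.62 with SE 0.63, adjusted p = 5.88e-05 by edgeR). Cbx8 and Cbx6 fell by 2.43 and 0.88 on the log2 scale (edgeR adjusted p = 2.64e-05 and 0.00441), and the Cbx6 call was lost without TTF (adjusted p = 0.109). Cbx2, which compacts chromatin and takes part in sex determination, stood at 11.8, 16.7 and 23.7 CPM in the lines, against 3.95 CPM in TTF and 59.5 CPM in MEF, on either side of all 10 lines. It did not pass (log2 ratio -0.89 with SE 0.54, adjusted p = 0.184 by edgeR), and its log2 fold change was 2.11 without MEF and -1.80 without TTF. Per kb of exon, Cbx7 made up 71.4 to 80.4% of the level of the 4 CBX members in the ntESC lines and 67.4% in the ESC line, whereas Cbx6 took 67.8% in TTF and Cbx2 56.6% in MEF. Without length scaling Cbx6 led in MEF too, with 55.4% against 38.1% for Cbx2.

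Phc1 stood at 288, 347 and 656 CPM in the lines, against 25.7 CPM in TTF and 77.8 CPM in MEF (log2 ratio 2.99 with SE 0.46, adjusted p = 0.000173 by edgeR). Phc2 went the other way, with 10.1, 14.0 and 20.4 CPM in the lines against 73.5 CPM in TTF and 145 CPM in MEF (log2 ratio -2.96 with SE 0.23, adjusted p = 7.60e-07 by edgeR), the smallest adjusted p of the 33 genes. The PHC level per kb was thus 92.7 to 98.0% Phc1 in the lines, whereas Phc2 took 47.5% in TTF and 56.7% in MEF. In TTF Phc3 took 30.4% per kb, and without length scaling Phc3 led there with 54.0%, above Phc2 with 34.1%. Phc3 was called lower (log2 ratio -1.81 with SE 0.61, adjusted p = 0.0242 by edgeR), but its level in MEF, 17.2 CPM, lay within that of the lines, 8.95, 11.7 and 37.8 CPM, and only TTF was higher with 116 CPM. Without TTF the fold change of Phc3 turned to 0.15 (edgeR adjusted p = 0.895). The call was also lost with strain as a covariate (adjusted p = 0.0964) and without CASP #F4 and #F6 (0.0505). Scmh1, a sex comb protein that joins canonical PRC1, did not pass, with 23.5, 41.1 and 50.4 CPM in the lines against 43.4 CPM in TTF and 38.4 CPM in MEF.

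**Figure D3:**
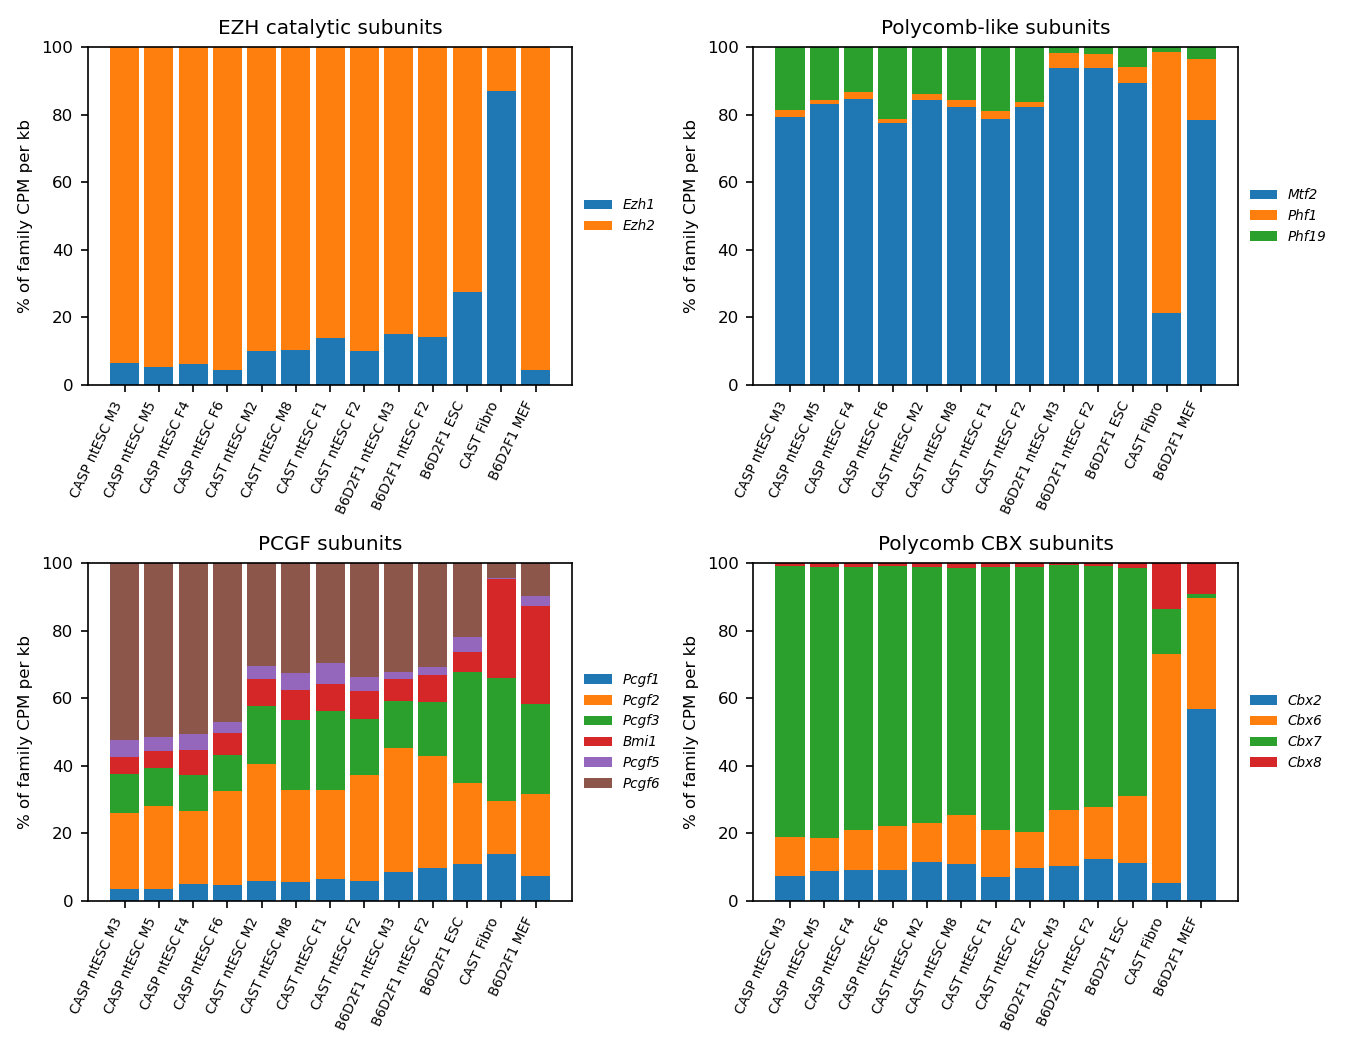
Share of each paralog in the summed level of its family, in percent of CPM per kb of exon, for the EZH, Polycomb-like, PCGF and CBX genes (1 stacked bar per library, castaneus ntESC lines first and fibroblasts last). Cbx7 and Mtf2 fill most of their bars in every pluripotent library, Phf19 is visible in the CASP and CAST lines and thin in the B6D2F1 lines, and Pcgf6 fills about as much as the other PCGF genes combined in the CASP lines.

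The genes of variant PRC1 were mostly higher in the ntESC lines, again with opposite changes in a pair of paralogs. Rybp stood at 134, 183 and 219 CPM in the lines, against 30.2 CPM in TTF and 64.8 CPM in MEF (log2 ratio 1.87 with SE 0.30, adjusted p = 0.000246 by edgeR). Yaf2, which takes the same place in the complex, stood at 4.60, 11.6 and 15.4 CPM in the lines, against 31.9 CPM in TTF and 47.9 CPM in MEF (log2 ratio -1.84 with SE 0.32, adjusted p = 0.000457 by edgeR). Neither gene overlapped between the groups, and Rybp made up 78.0 to 93.6% of their summed level per kb in the lines, 27.2% in TTF and 34.9% in MEF. Without length scaling the share of Rybp was 48.6% in TTF and 57.5% in MEF, so the leader in MEF depends on the scale. L3mbtl2, a partner of Pcgf6, was higher by 2.67 on the log2 scale (edgeR adjusted p = 1.40e-05) and Kdm2b, which brings the Pcgf1 complex to CpG islands, by 1.38 (edgeR adjusted p = 0.00397). Bcor, the Pcgf1-binding corepressor, did not pass (log2 ratio 0.74 with SE 0.35, adjusted p = 0.0958 by edgeR). It passed without MEF (log2 ratio 1.41, adjusted p = 0.0181).

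Between the strains of the ntESC lines, Phf19 and Pcgf5 were higher in both castaneus strains than in B6D2F1, and Pcgf6, Jarid2, Aebp2 and Ezh2 were higher in CASP than in either other strain. In the CASP lines 10 of the 33 genes were higher and 4 lower than in the B6D2F1 ntESC lines, or 42.4% against a background of 35.2% of the 20232 genes tested (18.3% higher and 16.9% lower). The CAST lines were higher for 5 and lower for 5 relative to the B6D2F1 lines, or 30.3% against 32.5% (17.6% higher and 14.8% lower). Both comparisons use the same 2 B6D2F1 lines. Between CASP and CAST, which share no line, 11 genes were higher and 5 lower in CASP, or 48.5% against 31.6% (15.4% higher and 16.2% lower). These are edgeR quasi-likelihood calls with sex as a covariate. The backgrounds here and in the fibroblast comparison take in genes of every level that was tested. Shares among genes of a level like that of the 33 are not given. Beside these calls, the sum of the fibroblast markers was 358, 66.1, 102 and 293 CPM in the CASP lines (#M3, #M5, #F4 and #F6) and 88.5, 247, 152 and 382 CPM in the CAST lines (#M2, #M8, #F1 and #F2), against 83.0 and 85.8 CPM in the B6D2F1 ntESC lines. CASP #M5 lay below the B6D2F1 lines and the other castaneus lines above them. All 9 had a log2 fold change above 0 against B6D2F1 in both strains, with a median of 1.18 in CASP (1 called, Pdgfrb) and 1.19 in CAST (2 called, Thy1 and Pdgfrb). No marker was at 0 in any line. Their part in the strain differences was not tested. With 1 B6D2F1 line left the calls were fewer: 7 without #M3 and 9 without #F2 for CASP against B6D2F1, and 3 and 4 for CAST against B6D2F1. For CAST against B6D2F1 the calls of Eed, Suz12, Phf1, Pcgf1, Pcgf5 and Kdm2b were lost without either B6D2F1 line (adjusted p of 0.0555 to 0.421) and that of Cbx6 without #M3 (0.218). Those of Rbbp7, Phf19 and Rybp held without either. For CASP against B6D2F1 the calls of Ezh1, Ezh2, Cbx6 and Phc1 were lost without either line (0.0613 to 0.3), those of Pcgf1, Scmh1 and Bcor without #M3 (0.0553, 0.0898 and 0.0599) and that of Suz12 without #F2 (0.0707). Leaving out single castaneus lines ended further calls, with adjusted p of at most 0.130: those of Ezh1 (CAST #M8, #F1 or #F2, CASP #M5 or #F6), Cbx7 and Scmh1 (CAST #M2 or #M8, CASP #M3 or #M5), Phc2 (CAST #M8 or #F2, CASP #F4 or #F6), Yaf2 (CAST #M2, #M8 or #F2, CASP #M3 or #M5) and Pcgf3 (CAST #M8) between CASP and CAST, of Cbx6 (CASP #M3 or #M5) and Phc1 (CASP #M3, #M5 or #F4) between CASP and B6D2F1, and of Eed (CAST #M2, #M8 or #F2, CASP #M5), Kdm2b (CAST #M2 or #F2) and Suz12 (CAST #M8) between CAST and B6D2F1. Calls over all genes are not given for the fits without 1 line, so no background stands beside their counts. Whether calls over all genes changed alike cannot be read here. Most strain differences were below 2-fold. The further condition of a change of at least 1 on the log2 scale left 4 of the 33 genes for CASP against B6D2F1. Of the 20232 genes tested it left 4247. It left 2 of the 33 and 3951 of all genes for CAST against B6D2F1, and 1 and 3025 for CASP against CAST. The share of the 33 genes was thus below the background each time.

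**Figure D4:**
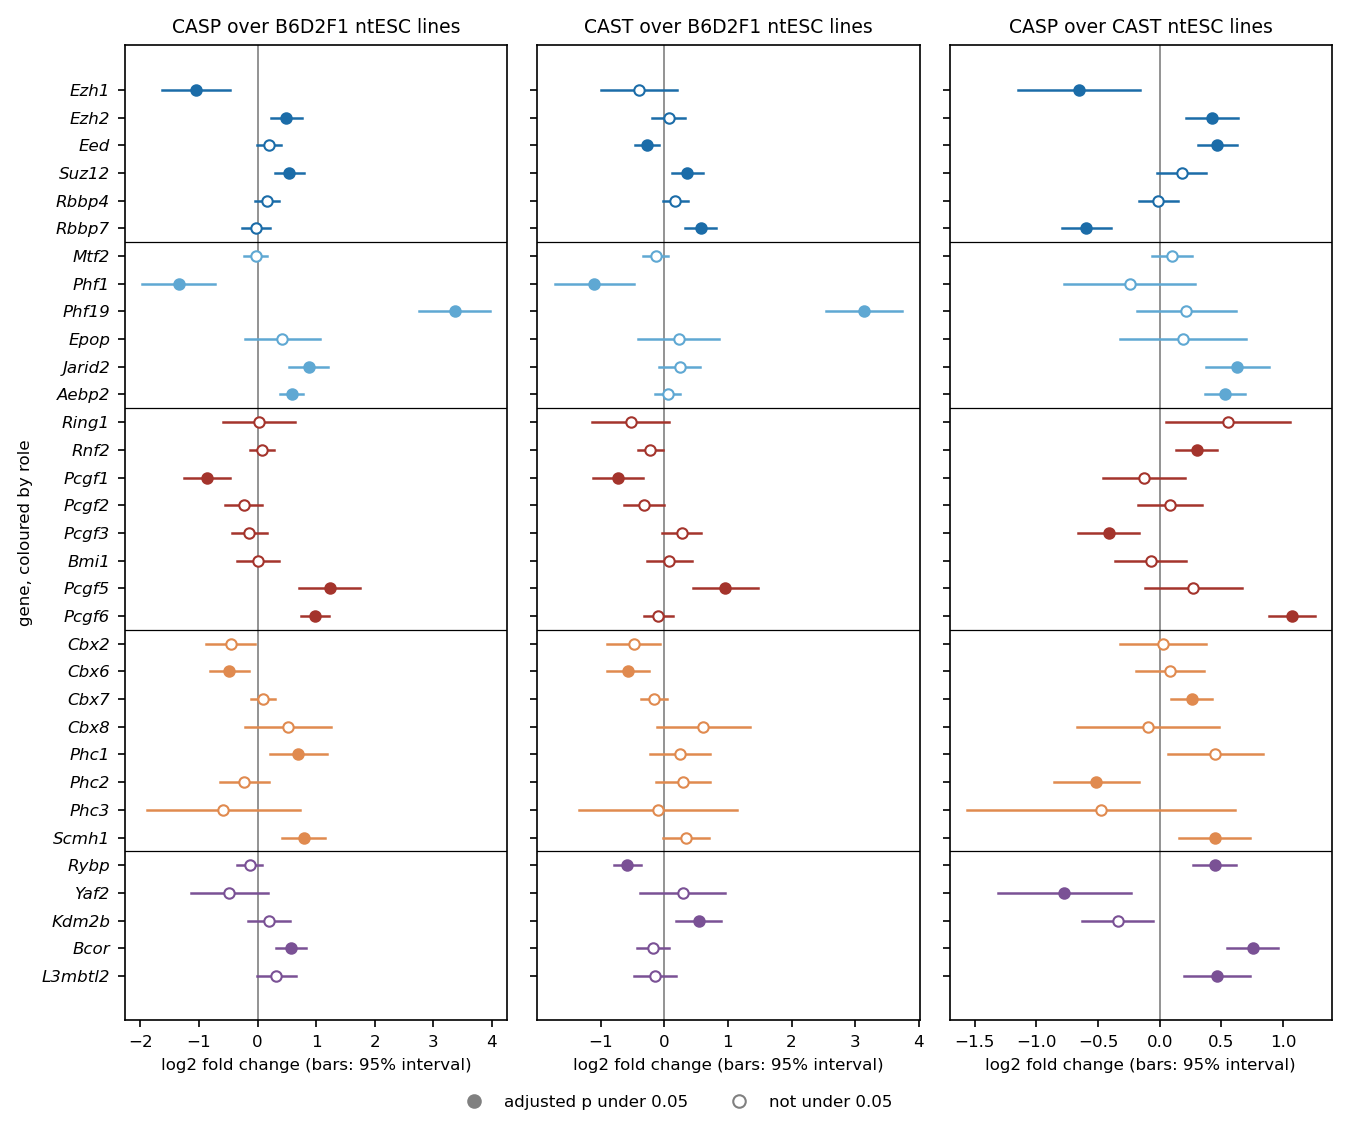
Log2 fold change with 95% interval of the 33 genes between the strains of the ntESC lines (CASP over B6D2F1, CAST over B6D2F1, CASP over CAST, each panel with its own axis), filled where the adjusted p was under 0.05. Phf19 lies above 3 in both comparisons with B6D2F1 and near 0 between CASP and CAST, and Pcgf6 lies near 1 in both comparisons of CASP.

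Phf19 showed the largest difference between castaneus and B6D2F1 lines. It stood at 69.9, 64.3, 46.5 and 89.3 CPM in the CASP lines (#M3, #M5, #F4, #F6 in that order) and 47.9, 54.5, 72.9 and 58.4 CPM in CAST #M2, #M8, #F1 and #F2, against 6.42 and 6.72 CPM in B6D2F1 #M3 and #F2. Every castaneus line was over 5-fold above both B6D2F1 ntESC lines. Against B6D2F1 both strains passed (log2 ratio 3.36 with SE 0.27, adjusted p = 9.60e-06 by edgeR for CASP, and log2 ratio 3.14 with SE 0.27, adjusted p = 1.84e-05 by edgeR for CAST), and CASP and CAST did not differ beyond their spread (log2 ratio 0.22 with SE 0.18, adjusted p = 0.399 by edgeR, 95% interval -0.19 to 0.62). Without CASP #F4 the log2 ratio was 0.40 and passed (adjusted p = 0.0259). The highest value was that of CASP #F6, the line with the raised median on chromosome 2, where Phf19 lies, and the lowest castaneus value was that of CASP #F4. The B6D2F1 ESC line had 17.9 CPM, above its ntESC counterparts and below all 8 castaneus lines. Per kb, Phf19 made up 13.5 to 21.3% of the Polycomb-like level in CASP and 13.9 to 19% in CAST lines, against 1.90 to 1.95% in B6D2F1 lines. Phf1 moved the other way in both castaneus strains, with 5.59, 3.02, 4.31 and 3.24 CPM in the CASP and 4.57, 4.66, 6.22 and 3.69 CPM in the CAST lines, against 10.1 and 10.5 CPM in the B6D2F1 lines (log2 ratio -1.35 with SE 0.28, adjusted p = 0.00417 by edgeR for CASP, and log2 ratio -1.11 with SE 0.28, adjusted p = 0.0127 by edgeR for CAST). The CAST call of Phf1 was lost without either B6D2F1 line. Mtf2 did not pass between any strains.

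Pcgf6 was higher in CASP alone of the 3 strains. Its levels were 197, 197, 194 and 167 CPM in the CASP lines and 87.8, 92.7, 82.3 and 96.1 CPM in the CAST lines, against 101 and 90.8 CPM in the B6D2F1 lines. The CASP lines lay above all others, and the CAST and B6D2F1 lines overlapped. CASP passed against CAST (log2 ratio 1.07 with SE 0.08, adjusted p = 1.07e-05 by edgeR) and against B6D2F1 (log2 ratio 0.97 with SE 0.11, adjusted p = 7.89e-05 by edgeR), and CAST did not pass against B6D2F1 (log2 ratio -0.10 with SE 0.10, adjusted p = 0.5 by edgeR). Pcgf6 made up 47.0 to 52.3% of the PCGF level per kb in CASP and 29.6 to 33.8% in CAST lines, against 30.7 to 32.2% in B6D2F1 lines. Other variant PRC1 genes were higher in CASP than in CAST as well, L3mbtl2 by 0.46, Rybp by 0.45 and Bcor by 0.75 on the log2 scale (edgeR adjusted p = 0.0149, 0.00181 and 0.000215), whereas Yaf2 fell by 0.77 (edgeR adjusted p = 0.0349). Against B6D2F1, Bcor was higher in CASP by 0.57 (edgeR adjusted p = 0.00374), Kdm2b was higher in CAST by 0.54 (edgeR adjusted p = 0.0271) and Rybp fell by 0.58 in CAST (edgeR adjusted p = 0.00112).

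Pcgf5 and Pcgf1 differed between B6D2F1 and both castaneus strains. Pcgf5 stood at 48.2, 38.9, 47.4 and 31.2 CPM in the CASP and 28.5, 35.6, 44.2 and 28.8 CPM in the CAST lines, against 17.5 and 17.8 CPM in the B6D2F1 lines (log2 ratio 1.23 with SE 0.23, adjusted p = 0.00242 by edgeR for CASP, and log2 ratio 0.96 with SE 0.23, adjusted p = 0.00973 by edgeR for CAST). The CAST call was lost without either B6D2F1 line (adjusted p = 0.0903 without #M3 and 0.084 without #F2). No castaneus line reached down to the B6D2F1 values, and the ESC line, at 28.4 CPM, lay above the B6D2F1 ntESC lines. Pcgf1, the PCGF protein of the Kdm2b complex and a gene of low level, stood at 4.40, 4.25, 6.12 and 5.31 CPM in the CASP and 5.50, 5.16, 5.85 and 5.29 CPM in the CAST lines, against 8.65 and 9.48 CPM in the B6D2F1 lines, and fell by 0.86 in CASP and 0.73 in CAST on the log2 scale (edgeR adjusted p = 0.0042 and 0.0108). Pcgf3 fell by 0.41 and Rnf2 was higher by 0.30 in CASP relative to CAST (edgeR adjusted p = 0.0173 and 0.0116).

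In PRC2, the balance of Ezh2 and Ezh1 differed between the strains. Ezh2 stood at 293, 270.5, 306 and 239 CPM in the CASP and 188, 216, 221 and 200.4 CPM in the CAST lines, against 195 and 199 CPM in the B6D2F1 lines. The CASP lines lay above the others, by 0.49 (SE 0.12, adjusted p = 0.00857 by edgeR) on the log2 scale against B6D2F1 and 0.42 (SE 0.09, adjusted p = 0.00643 by edgeR) against CAST, and CAST did not differ from B6D2F1 beyond the spread (log2 ratio 0.07 with SE 0.12, adjusted p = 0.695 by edgeR). Ezh1 stood at 22.3, 16.1, 21.9 and 12.2 CPM in the CASP and 22.8, 27.5, 39.5 and 24.5 CPM in the CAST lines, against 38.6 and 36.6 CPM in the B6D2F1 lines, lower in CASP than in B6D2F1 (log2 ratio -1.05 with SE 0.26, adjusted p = 0.0111 by edgeR) and in CAST (log2 ratio -0.65 with SE 0.22, adjusted p = 0.0478 by edgeR). The calls of Ezh1 and Ezh2 in CASP against B6D2F1 were lost without either B6D2F1 line (adjusted p = 0.11 and 0.0849 without #M3). That of Ezh1 in CASP against CAST was lost in 9 of 18 alternatives. Ezh1 made up 4.37 to 6.39% of the EZH level per kb in CASP and 9.83 to 13.8% in CAST lines, against 14.2 to 15.1% in B6D2F1 ntESC lines, with no overlap between any 2 strains, and 27.3% in the ESC line.

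Jarid2 stood at 553, 637, 492 and 536 CPM in the CASP and 399, 325, 292 and 413 CPM in the CAST lines, against 311 and 295 CPM in the B6D2F1 lines (log2 ratio 0.87 with SE 0.15, adjusted p = 0.00132 by edgeR for CASP against B6D2F1, and log2 ratio 0.63 with SE 0.12, adjusted p = 0.00245 by edgeR for CASP against CAST). Aebp2, its partner, was higher in CASP by 0.58 against B6D2F1 and 0.53 against CAST (edgeR adjusted p = 0.000766 and 0.000419). For both genes no CASP line overlapped another strain, and CAST did not pass against B6D2F1 (log2 fold change 0.24 for Jarid2 and 0.05 for Aebp2). Suz12 was higher in CASP and in CAST than in B6D2F1 by 0.54 and 0.36 (edgeR adjusted p = 0.00409 and 0.0297). Eed was higher in CASP than in CAST by 0.47 (edgeR adjusted p = 0.000913) and fell by 0.27 in CAST relative to B6D2F1 (edgeR adjusted p = 0.0366). Rbbp7 was higher in CAST than in B6D2F1 by 0.57 and lower in CASP than in CAST by 0.60 (edgeR adjusted p = 0.00345 and 0.000759). Rbbp4 and Epop did not pass between any strains.

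**Figure D5:**
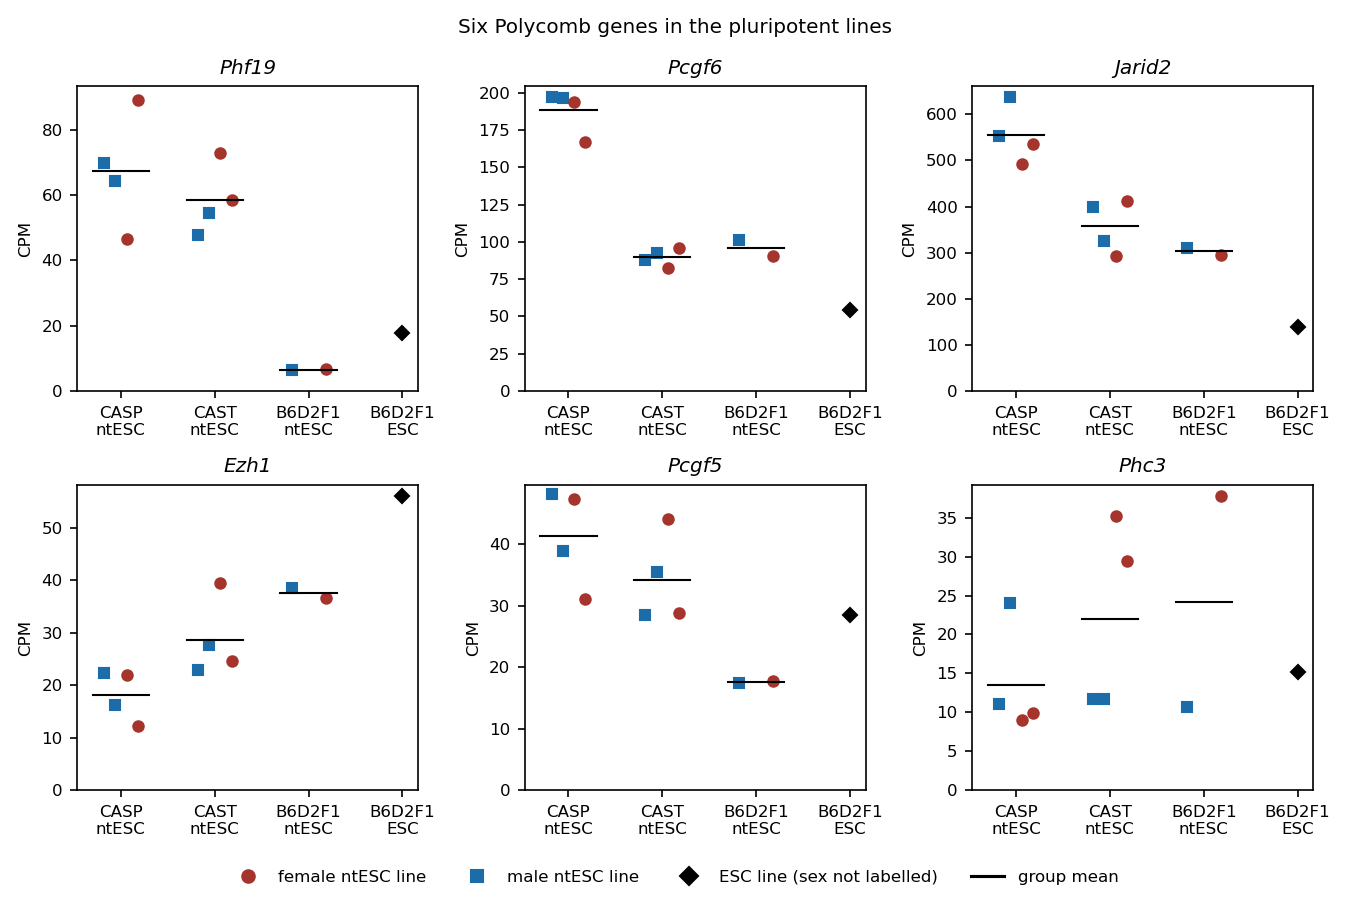
CPM of 6 genes in the pluripotent lines, 1 point per line (circles female, squares male, diamond the ESC line) with the mean of each ntESC group as a bar. Phf19 and Pcgf5 are low in the 2 B6D2F1 ntESC lines, Pcgf6 is high in the 4 CASP lines, and Phc3 is high in 4 lines of different strains.

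Among the canonical PRC1 genes, Cbx7 changed little with strain. It stood at 231, 227, 234 and 219 CPM in the CASP and 185, 172, 203 and 202 CPM in the CAST lines, against 218 and 208 CPM in the B6D2F1 lines, and only CASP against CAST passed (log2 ratio 0.26 with SE 0.07, adjusted p = 0.0239 by edgeR), a call also lost with library size as the only scaling (adjusted p = 0.0572). Cbx6 fell by 0.48 in CASP and 0.57 in CAST relative to B6D2F1 (edgeR adjusted p = 0.0298 and 0.0157). Scmh1 was higher in CASP by 0.79 against B6D2F1 and 0.45 against CAST (edgeR adjusted p = 0.00454 and 0.0255). Phc1 was higher in CASP than in B6D2F1 by 0.70 (edgeR adjusted p = 0.0303). Against CAST it was 0.45 and did not pass (edgeR adjusted p = 0.0726). It passed by DESeq2 (adjusted p = 0.0455), without CAST #F1 (0.00951), without CASP #F6 (0.0107) and without both CASP #F4 and #F6 (0.0131). Phc2 fell by 0.52 in CASP relative to CAST (edgeR adjusted p = 0.0289). Phc3 had the largest spread over the ntESC lines, with a coefficient of variation of 59.9%, and it did not follow strain. It stood at 11.1, 24.0, 8.95 and 9.85 CPM in the CASP lines, 11.7, 11.7, 35.2 and 29.5 CPM in CAST #M2, #M8, #F1 and #F2, and 10.7 and 37.8 CPM in B6D2F1 #M3 and #F2. CASP #M5, both CAST female lines and B6D2F1 #F2 were thus above 20 CPM and the other 6 lines below 12 CPM.

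The ntESC lines hold 5 female and 5 male lines, and no Polycomb gene passed between the sexes. With strain as a covariate 0 of the 33 genes were called, against a background of 0.0494% of all genes, and DESeq2 called 0. An unadjusted edgeR p under 0.05 was found for 2 of the 33, a share near that of all genes (1201 of 20232 tested). These 2 were the X-linked genes Rbbp7 and Bcor. Rbbp7 stood at 412, 492 and 798 CPM in the female lines (lowest, median and highest of 5), against 389.6, 404 and 583 CPM in the male lines. Within each strain every female line was above every male line, but the gene did not pass (log2 ratio 0.30 with SE 0.08, adjusted p = 0.544 by edgeR). Bcor stood at 77.0, 89.7 and 133 CPM in the female and 83.9, 103 and 176 CPM in the male lines, lower in the female lines within each strain, and did not pass either (log2 ratio -0.25 with SE 0.08, adjusted p = 0.67 by edgeR). The median gene of the X chromosome stood 0.39 and 0.31 higher on the log2 scale in CAST #F2 and B6D2F1 #F2 than in the other lines of their strain. The part of these shifts in the values of Rbbp7 and Bcor was not tested. The difference of the sex effect between CASP and CAST was tested over the 8 castaneus lines. Of the 33 genes 0 passed, against a background of 0.0151%. An unadjusted edgeR p under 0.05 was found for 3 (Phc1, Phc3 and Scmh1), against 912 of the 19888 genes tested. DESeq2 called 1, Phc3, whose log2 difference was -2.36 (edgeR adjusted p = 0.957, DESeq2 adjusted p = 0.00107).

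The B6D2F1 ntESC lines were set against the ESC line of the same strain, which is a single library, so no test was made. Taking 2-fold as the limit, 2 of the 33 genes were higher (3.47% of all genes) and 1 was lower (8.57%) in the mean of the 2 ntESC lines than in the ESC line. Jarid2 stood at 311 and 295 CPM in the 2 ntESC lines, against 139 CPM in the ESC line, and Epop at 125 and 133 CPM, against 57.8 CPM. Phf19 was lower, with 6.42 and 6.72 CPM in the ntESC lines against 17.9 CPM in the ESC line. Over all strains, 14 of the 33 genes were at a level in the ESC line below that of all 10 ntESC lines (18% of all genes) and 2 were above it (19.8%), Ezh1 with 55.9 CPM and Pcgf3 with 156 CPM. The 14 included Ezh2, Mtf2, Pcgf6 and Cbx7. Outside the PCGF family the leading paralogs of the ESC line were those of the ntESC lines. Ezh2 held 72.7%, Mtf2 89.3%, Cbx7 67.4%, Phc1 93.6% and Rybp 84.9% of their families per kb. In the PCGF family the leader differed with union exon length as the scale. In the ESC line Pcgf3 led with 33% per kb, above Pcgf2 (23.9%) and Pcgf6 (21.8%). Pcgf2 led in B6D2F1 ntESC #M3 and #F2 with 36.7% and 32.9%, above Pcgf6 (32.2% and 30.7%) and Pcgf3 (14.0% and 16%). Without length scaling Pcgf6 led in these 2 lines (32.9% and 30.8%), and Pcgf3 still led in the ESC line (51.9%). The union exon length was 5027 bases for Pcgf6, 9544 for Pcgf3 and 3526 for Pcgf2. In the coding transcripts used above it was 2159, 7708 and 2485 bases, in proportion the largest drop for Pcgf6. Shares on transcript lengths are not given, and the leaders named here hold for the 2 scales shown only.

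The other proteins of the pathway were read from 3 further lists, of partners of the complexes, of enzymes that remove their marks and of developmental genes they are known to bind. Among 25 tested partner genes, the ntESC lines were higher for 11 and lower for 4 relative to the fibroblasts, or 60% against the background of 51.9% (24.7% higher and 27.3% lower). Ezhip, an inhibitor of PRC2, stood at 3.68, 12.0 and 26.3 CPM in the lines, against 0.132 CPM in TTF and no count in MEF (edgeR adjusted p = 0.000176). The genes with the next largest differences were Scml2 and Sfmbt2, of the same protein family as Scmh1, and Wdr5, a subunit shared with activating complexes, higher by 6.10, 4.11 and 2.65 on the log2 scale (edgeR adjusted p = 0.000256, 1.62e-06 and 0.000129). Relative to B6D2F1, CASP was higher for 1 partner and lower for 4, or 20% against a background of 35.2%. CAST was higher for 2 and lower for 7, or 36% against 32.5%. Scml2 led both, with 75.8, 101, 204 and 60.7 CPM in the CASP and 154, 150.4, 104 and 206 CPM in the CAST lines, against 18.9 and 54.0 CPM in the B6D2F1 lines (log2 ratio 1.67 with SE 0.49, adjusted p = 0.0232 by edgeR for CASP, and log2 ratio 2.2, adjusted p = 0.00816 by edgeR, for CAST). Every CAST and CASP line lay above both B6D2F1 lines.

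Among 8 genes for removal of the marks, the ntESC lines were higher for 3 and lower for 1 relative to the fibroblasts, or 50% against the background of 51.9%. The H3 demethylase gene Kdm6a was higher by 1.53 and the deubiquitinase partners Asxl1 and Asxl2 by 1.44 and 0.93 on the log2 scale, and Asxl3 fell by 2.53 (edgeR adjusted p = 0.00207, 0.00142, 0.00477 and 0.0221), although TTF, with 0.211 CPM, lay below and MEF, with 38.2 CPM, above all 10 lines. Between CASP and CAST, 2 of the 8 were called, both higher in CASP, or 25% against a background of 31.6%. Relative to B6D2F1, CASP was higher for 2 and lower for 2, or 50% against 35.2%, and CAST differed for 0, against 32.5%. Kdm6b, the paralogous demethylase gene, was higher in CASP than in CAST, with 151, 139.5, 126 and 94.0 CPM in the CASP against 66.8, 69.2, 65.2 and 69.1 CPM in the CAST lines (log2 ratio 0.91 with SE 0.12, adjusted p = 0.000319 by edgeR). CASP #F6 was the lowest CASP line and still above every CAST line.

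Among 25 tested developmental genes, the ntESC lines were higher for 4 and lower for 12 relative to the fibroblasts, or 64% against the background of 51.9%. Their median log2 fold change was -1.45, against 0.12 over all genes. The summed level of the 26 listed genes was 61.9 to 100.5 CPM in the ntESC lines, against 466 CPM in TTF and 308 CPM in MEF. Much of the TTF sum was Cdkn2a, a gene of cell cycle arrest named here after its values were seen, with 276 CPM in TTF and 10.1 CPM in MEF. The homeobox gene Cdx1 stood at 4.27, 8.78 and 21.5 CPM in the lines with no count in either fibroblast library, and the mesoderm factor T at 0.525, 3.93 and 14.1 CPM in the lines, against no count in TTF and 0.210 CPM in MEF. Tbx5, a limb and heart factor, and Pax3, a muscle and neural crest factor, stood at 0.527 and 0.948 CPM in TTF and 12.4 and 15.4 CPM in MEF, with at most 0.154 and 0.190 CPM in any ntESC line. Relative to B6D2F1, CASP was higher for 6 of 23 tested developmental genes and lower for 2, and CAST higher for 5 and lower for 3, which is 34.8% in each, against backgrounds of 35.2% and 32.5%. Olig2, a factor of neural progenitors, was at most 0.103 CPM in the 4 CASP lines and 0.0771 CPM in the 4 CAST lines, against 6.06 and 3.60 CPM in the B6D2F1 lines (edgeR adjusted p = 0.000204 for CASP and 0.000134 for CAST). T showed the reverse, with 3.25, 3.74, 4.13 and 9.30 CPM in the CASP and 14.1, 5.81, 2.53 and 8.47 CPM in the CAST lines, against 1.44 and 0.525 CPM in the B6D2F1 lines (log2 ratio 2.44 with SE 0.76, adjusted p = 0.0297 by edgeR for CASP, and log2 ratio 2.98 with SE 0.76, adjusted p = 0.0134 by edgeR for CAST).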

How the data were processed

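Poly(A) RNA of 13 mouse cultures (10 ntESC lines, 1 ESC line and 2 fibroblast cultures) was sequenced as paired reads of 100 bases, 1 library each. Per the submitters' processing notes and the methods, the authors used fastp 0.22.0 for trimming, HISAT2 2.2.1 for alignment (to GRCm38) and StringTie 2.1.7 for quantification. The processing notes also name edgeR, without a version, whereas the methods name DESeq2 for the scaling to CPM. The annotation release is not given in the sources used here. The authors deposited raw counts per gene, used here, and a second table with log2 values of scaled counts, not used here. Of 21706 genes, 21675 were matched to GENCODE M21, which gave positions, exon lengths and transcripts. The 94 genes without a symbol stayed in the totals. Per-sample columns left out numbered 0.

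Counts were fitted in R 4.3.3 with edgeR 4.0.16 (limma 3.58.1), using TMM factors of all 13 libraries (0.825 to 1.09), filterByExpr and the quasi-likelihood test, with Benjamini-Hochberg adjustment over all genes tested and a threshold of 0.05. The ntESC lines were compared with the fibroblasts without a covariate, the strains with sex as a covariate, and the sexes with strain as a covariate. The sex effect in CASP was tested against that in CAST. Shares of paralogs were computed from CPM per kb of union exon length and given without a test. The fit was tested on simulated data. As each library is 1 line or culture, p-values of the strain and sex comparisons measure only the spread between lines. The fibroblast comparison had no term for strain or sex. Its error therefore also holds the differences between strains and those between TTF and MEF. Intervals do not cover differences in handling. All 33 genes are named, and of each further list up to 4 genes per comparison, those past the threshold that changed most on the log2 scale. Genes and lists were chosen with earlier results of these data known. Alternatives were RLE factors or library size only, other filters, DESeq2 1.42.0, a minimum fold change, other covariates, the ESC line counted with the ntESC lines, each library left out in turn, unscaled shares and, chosen after seeing the data for the fibroblast comparison, leaving out CASP #F4 and #F6.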

Additional observations from a re-analysis of the deposited data

Results flagged for a closer look

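Within groups of 4 ntESC lines, 66 combinations of gene and strain were examined for 1 library far from the other 3, and 2 were found, where chance alone gives about 5% (about 1 in 20). Pcgf6 stood at 167 CPM in CASP #F6, below the 194 to 197 CPM of the other CASP lines (gap over range 0.880), and still above every CAST and B6D2F1 line. Phc3 stood at 24.0 CPM in CASP #M5, above the 8.95 to 11.1 CPM of the other CASP lines (gap over range 0.858).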

How the results depend on the processing

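The number of Polycomb genes called was 24 to 27 for ntESC lines against fibroblasts, 9 to 12 for CAST against B6D2F1, 14 for CASP against B6D2F1 and 13 to 17 for CASP against CAST over the alternatives other than leaving out 1 library and, for the strains, a minimum absolute log2 fold change of 1, which left 2, 4 and 1 genes. Leaving out 1 library gave 22 to 29 genes for ntESC lines against fibroblasts, 3 to 10 for CAST against B6D2F1, 7 to 15 for CASP against B6D2F1 and 11 to 18 for CASP against CAST. For female against male and for the difference of the sex effects it gave 0 to 0, with 1 gene by DESeq2 in the difference. Calls over all genes are not given for the fits without 1 library, so these ranges have no background beside them. Directions were followed only for the genes called in a comparison and for some uncalled genes. Among these, directions turned only in ntESC lines against fibroblasts: Cbx2 had log2 ratios of 2.11 without MEF and -1.80 without TTF, Ezh1 of -1.14 without MEF, 1.99 without TTF and 0.089 with strain as a covariate, and Phc3 of -2.61 without MEF and 0.15 without TTF, the fibroblast libraries lying on either side of the lines for Cbx2 and Ezh1. The call of Ezh2 there had an adjusted p of 0.0385 and one of 0.0506 to 0.0531 without any 1 CASP line, 0.0535 with library size only and 0.0701 without CASP #F4 and #F6. The cause was not tested. The calls of Phf19 against B6D2F1 were kept in all 18 alternatives. Without scaling by exon length the ntESC share was 93.5% for Rnf2, 73.2% for Cbx7, 92.1% for Phc1, 93.7% for Rybp and 46.2% for Rbbp7, against 91.8%, 76.5%, 95.9%, 85.7% and 71.8% with it. In the PCGF family the mean ntESC share of Pcgf6 was 37.0% without it and 39.1% with it. That of Pcgf2 was 19.1% without and 28.6% with it, and that of Pcgf3 27.1% and 15.2%, so Pcgf2 and Pcgf3 changed places. Over all genes, calls numbered 10849 for ntESC lines against fibroblasts, 6566 for CAST and 7126 for CASP against B6D2F1, and 7060, 4049 and 4499 where a mean of 5 CPM was required, so that fewer genes were tested. How many genes were tested at that level is not given, so these counts do not show how the share called changed. With the minimum fold change the calls over all genes numbered 3951 for CAST and 4247 for CASP against B6D2F1, and 3025 against 6385 for CASP against CAST. DESeq2 called 92 genes against 10 between the sexes and 24 against 3 for the difference of sex effects. Over all genes the median log2 ratio of ntESC lines to fibroblasts was 0.12 with TMM, 0.04 with RLE factors, 0.21 with library size only and -0.02 with DESeq2. The 2 fibroblast libraries and 2 B6D2F1 ntESC lines limit the precision of every comparison made with them.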
